A study of Mus musculus with 6 samples.

Results

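The cytosolic ribosomal protein genes were examined in whole pancreas of mice with a pancreatic deletion in Sirt1. Members were the genes whose symbol had the form of a large-subunit (Rpl), small-subunit (Rps) or stalk (Rplp) protein, or was Rpsa, on rows of the array table with exactly 1 gene symbol. There were 67 such genes among 22180 genes tested, 35 of the large 60S subunit, 23 of the small 40S subunit and 9 paralogs or similarly named genes. Each gene was read by its transcript cluster (the probes that the array design summarizes for 1 transcript region) with the highest mean over the 6 arrays.

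The cytosolic ribosome builds all proteins encoded in the nucleus. Its small subunit binds the mRNA and checks the pairing of codon and tRNA, and its large subunit joins the amino acids and passes the chain out through a tunnel. Pancreatic acinar cells, which make the digestive enzymes, are among the most active protein-making cells of the body. Most ribosomal protein mRNAs of mammals begin with a run of pyrimidines, the 5′ terminal oligopyrimidine (TOP) tract, through which their translation follows nutrient signals. The encoding genes also have many processed pseudogenes in mammals, and which of these copies the probes of a cluster read was not tested.

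Sirt1 is a NAD-dependent protein deacetylase. The Sirt1-deficient mice (Pdx1Cre;Sirt1ex4F/F) carried the Cre transgene of B6.FVB-Tg(Ipf1-cre)6Tuv/J mice and 2 copies of the floxed Sirt1 allele of B6;129-Sirt1tm1Ygu/J mice. The control mice (Pdx1Cre) carried the same Cre and wild-type Sirt1. All were males of 6 months, 3 per group, and RNA of 1 pancreas was hybridized to each GeneChip Mouse Gene 2.0 ST array. Cre was driven by the promoter of Pdx1, a transcription factor of the pancreatic lineage, so other cells of the organ keep their Sirt1, and the recombined allele keeps all exons but exon 4. The study describes the activity of this driver as mosaic, above all in exocrine tissue, so some acinar cells may keep intact Sirt1 too. The Sirt1 cluster read 5.59, 5.69 and 5.83 (log2 values) in the Sirt1-deficient pancreata and 5.84, 5.78 and 5.80 in the control pancreata, and the groups overlapped (log2 fold change -0.11, adjusted p = 0.916 by limma). It sums probes over the gene and does not single out exon 4, so it does not check the genotype. By RT-qPCR the study itself reported less Sirt1 transcript in total pancreas and in islets of these mice, and by western blot a shorter protein in total pancreas. Why the array reading did not separate the groups was not tested. All values are the deposited log2 values, fold changes are Sirt1-deficient minus control, and in whole tissue fewer cells of a type and less RNA per cell cannot be told apart.

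The annotated starts of 6 members that carry the results are shown, as RefSeq gives them for build GRCm38.p6, on the strand of the gene. Each window holds the 20 bases before the start and the first 20 bases of the transcript, and capitals mark a TOP-like run, a C followed by at least 4 letters that are each C or T, which begins within 3 bases of the start. Rpl27a (chr7:109519175-109519214, plus strand) and Rps13 (chr7:116334171-116334210, minus strand) were the members that fell, Rpl7a (chr2:26910787-26910826, plus strand) had another cluster that fell, and Rps12 (chr10:23787190-23787229, minus strand), Rps15 (chr10:80292411-80292450, plus strand) and Rps10 (chr17:27635225-27635264, minus strand) had negative fold changes that did not pass.
Rpl27a: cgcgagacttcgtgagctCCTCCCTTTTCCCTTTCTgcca
Rpl7a: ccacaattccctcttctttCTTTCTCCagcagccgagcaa
Rps10: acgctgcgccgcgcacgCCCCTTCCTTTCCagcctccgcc
Rps12: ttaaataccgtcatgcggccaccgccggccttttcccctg
Rps13: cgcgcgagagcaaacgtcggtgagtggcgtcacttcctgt
Rps15: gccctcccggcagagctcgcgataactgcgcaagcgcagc
The run of Rpl27a, 18 letters, was the longest found among the members. Rps12, Rps13 and Rps15 had no such run beginning within 3 bases of the annotated start. Their windows hold C and T runs at other places, which were not counted. Of the 67 members, 52 matched an entry of the start table and 15, Rpl3 among them, did not. A TOP-like start was found in 19 of the 52, or 36.5%, against 9 of 69 mitochondrial ribosomal protein genes (13.0%) and 3651 of 27025 genes of the table (13.5%). The share was 36.0% in the 60S genes (9 of 25) and 35.0% in the 40S genes (7 of 20). The median log2 fold change was -0.06 in the 19 members with a run and -0.07 in 33 without one, a difference that was not tested.

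At an unadjusted p under 0.01 by limma, the threshold for every gene said here to pass, 1 member was higher in the Sirt1-deficient pancreata, 2 were lower and 64 did not pass. For Rpl3, whose protein lies close to the peptidyl transferase center of the large subunit, the brightest cluster rose 1.98-fold. The clusters of the small-subunit gene Rps13 and the large-subunit gene Rpl27a fell. The other Rpl3 clusters did not pass (log2 fold changes 0.13 and 0.28). By the order of cluster identifiers, described below, the bright Rpl3 cluster and the Rps13 cluster did not lie at their genes. Among all genes tested, 1.63% passed this threshold, 0.739% higher and 0.888% lower, so about 1 of 67 members would match that share. At an unadjusted p under 0.05, 4 members passed, Rps15 being the fourth, where 6.66% of all genes did. No member passed at a Benjamini-Hochberg adjusted p under 0.05 by limma, as 0.0135% of all genes did (3 genes), and the lowest adjusted p among the members was 0.0722, that of Rpl3. With 3 arrays per group the exact permutation test, 2-sided, cannot give a p under 0.1, so the limma values depend on how it models the variance.

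**Figure D1:**
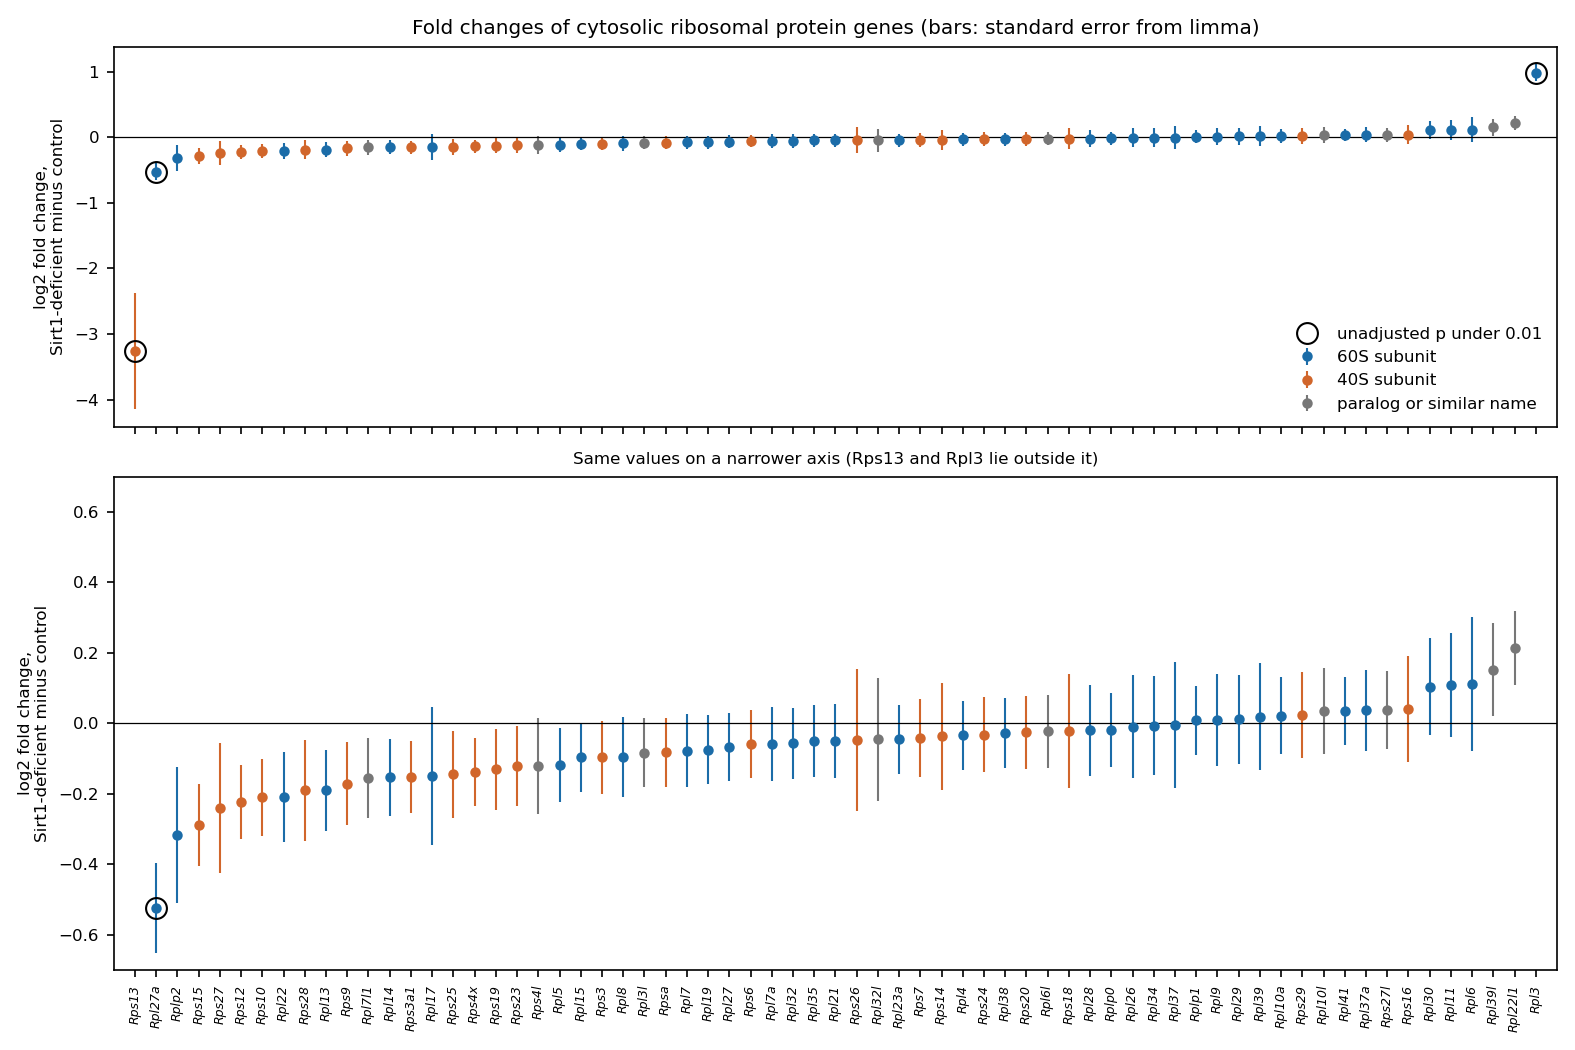
Log2 fold change (Sirt1-deficient minus control, 3 arrays each) of the 67 ribosomal protein genes, ordered by value, with the standard error from limma as bars; colours mark the subunit and circles the 3 genes with an unadjusted p under 0.01. The upper axis shows all values and the lower one is narrower: apart from Rps13, Rpl27a and Rpl3 the members lie between -0.32 and 0.21, and 50 of the 67 lie below 0.

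Rpl3 was the member that rose, by its brightest cluster alone. Its brightest cluster (17533413) read 10.41, 10.34 and 10.03 in the Sirt1-deficient pancreata and 9.26, 9.19 and 9.36 in the control pancreata. All 3 Sirt1-deficient values lay above all control values, by more than the spread within either group. The log2 fold change was 0.99 (standard error 0.13, p = 2.14e-05 by limma; exact permutation p = 0.1), and it passed again whichever array was left out, at 0.91 to 1.10. The 2 other clusters of Rpl3 did not follow it. Cluster 17319403 read 5.81, 6.04 and 6.10 in the Sirt1-deficient pancreata and 6.06, 5.79 and 5.69 in the control pancreata (log2 fold change 0.13, adjusted p = 0.913 by limma). Cluster 17319389 read 4.30, 4.09 and 4.21 in the Sirt1-deficient pancreata and 3.75, 4.34 and 3.66 in the control pancreata (0.28, adjusted p = 0.842 by limma). In both, the groups overlapped.

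The cluster identifiers of this array run in genome order, which gives each cluster a place among its neighbours. A cluster was placed by the 10 clusters around it, 5 on each side. At least 8 of these had to belong to genes within 50 genes of their median place on the same chromosome, in RefSeq order. The cluster was called at its gene where its own gene also lay within 50 genes of that median place. Of 22278 clusters of all genes that could be placed, 99.5% lay at their gene, but of 91 clusters of the ribosomal protein genes only 63 did (69.2%) and 28 lay elsewhere. The bright Rpl3 cluster was one of the 28. Rpl3 is on chromosome 15, and this cluster stands between those of Usp9x and Ddx3x, genes of the X chromosome, while the other 2 Rpl3 clusters stand beside Pdgfb, Snord83b and Snord43 at the gene itself. Usp9x (log2 fold change 0.03) and Ddx3x (0.03) did not pass by limma. Whether the bright cluster reads the mRNA of Rpl3 itself was not tested.

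Rps13, a small-subunit protein that takes part in a bridge between the subunits, had the most negative fold change. Its single cluster (17493182) read 4.89, 8.75 and 4.63 in the Sirt1-deficient pancreata and 9.61, 8.97 and 9.50 in the control pancreata. Sirt1-deficient pancreata 1 and 3 lay far below all others, whereas pancreas 2 lay just below the lowest control. The log2 fold change was -3.27 (standard error 0.88, p = 0.00462, adjusted p = 0.525 by limma; exact permutation p = 0.1). Its spread within groups, an SD of 1.65, was at the top of all genes tested (100th percentile), against a median of 0.115 over the members and 0.155 over all genes. The call was lost without Sirt1-deficient pancreas 1 or 3 or any 1 control (log2 fold change -2.54 to -3.46), held without Sirt1-deficient pancreas 2 (log2 fold change -4.60), and was lost with an intensity trend and robust moderation in limma. This cluster too lay elsewhere: it stands between Tyr and Tmem135 on chromosome 7, 730 genes from the place of Rps13 on the same chromosome. Tyr (log2 fold change -0.15) and Tmem135 (-0.06) did not pass.

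Rpl27a, a large-subunit protein whose mutation causes the sooty foot ataxia phenotype in mice, fell 1.44-fold. It read 6.19, 6.45 and 6.47 in the Sirt1-deficient pancreata and 7.02, 6.72 and 6.94 in the control pancreata, without overlap. The log2 fold change was -0.52 (standard error 0.13, p = 0.00229, adjusted p = 0.409 by limma; exact permutation p = 0.1). Unlike Rpl3 and Rps13, its single cluster lay at its gene on chromosome 7, between 1700095J03Rik and Akip1. The call was lost without Sirt1-deficient pancreas 1 (log2 fold change -0.44) or without control pancreas 1 (-0.46).

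**Figure D2:**
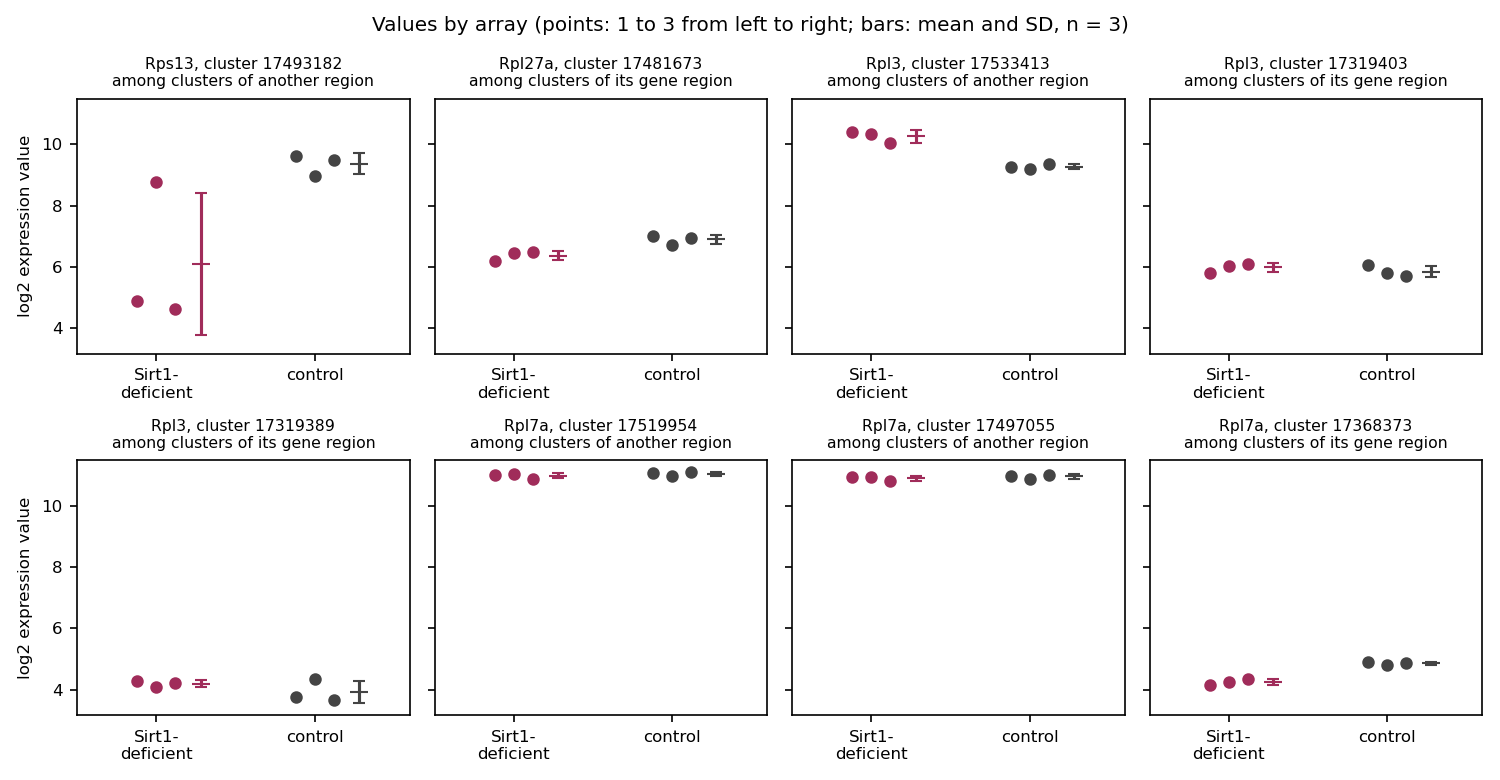
Log2 values on each array (points, arrays 1 to 3 from left to right within a group) with mean and SD (n = 3) for the single clusters of Rps13 and Rpl27a and the 3 clusters each of Rpl3 and Rpl7a, Sirt1-deficient left of control. Only Sirt1-deficient pancreata 1 and 3 are far below the controls for Rps13, the Rpl3 groups are apart in cluster 17533413 alone, and those of Rpl7a in cluster 17368373 alone.

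Several clusters were found for 25 members, 66 clusters in all, of which 41 were not the brightest of their gene. Of these 41, 8 held the same values as another cluster, 10 had a mean under 4.66, the 95th percentile of 1088 olfactory receptor genes taken as a mark of dim signal, none was higher and 1 was lower at an unadjusted p under 0.01 by limma, where 1.68% of all clusters with 1 symbol passed. The lower one was a cluster of Rpl7a, a large-subunit protein. It read 4.17, 4.24 and 4.35 in the Sirt1-deficient pancreata and 4.90, 4.82 and 4.87 in the control pancreata (log2 fold change -0.61, standard error 0.10, adjusted p = 0.204 by limma). This dim cluster (17368373) lay at the gene on chromosome 2, beside Surf2. The 2 bright clusters of Rpl7a lay elsewhere, among genes of chromosomes 9 and 7, and both had a log2 fold change of -0.06.

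Rps12, a small-subunit protein with a role in cell competition in Drosophila, had more clusters than any other member. Its 8 clusters held 3 distinct sets of values, 6 of the clusters being the same on every array. The brightest, at its gene on chromosome 10, read 9.75, 9.82 and 9.62 in the Sirt1-deficient pancreata and 9.94, 9.94 and 9.99 in the control pancreata. In each of the 3 sets all Sirt1-deficient values lay below all control values, with log2 fold changes of -0.22, -0.27 and -0.27 (adjusted p of 0.757, 0.66 and 0.649 by limma), and none passed. Whether these clusters share probes was not tested, and they are not counted as separate measurements.

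Over the 25 members with several clusters, 17 had a negative fold change in every cluster, 3 a positive one in every cluster and 5 both signs. The range of log2 fold changes within a gene had a median of 0.10 and was above 0.2 in 6 genes. Rps18, a small-subunit protein of the head, had its most negative value in a cluster at its gene (17343692), at 4.79, 4.80 and 4.67 in the Sirt1-deficient pancreata and 4.999, 5.346 and 4.923 in the control pancreata (log2 fold change -0.34, adjusted p = 0.674 by limma). Its brightest cluster had a log2 fold change of -0.02. Rpl41, which encodes the smallest ribosomal protein, had 5 clusters; the 4 brighter ones were between 0.02 and 0.06 and the dimmest, the one at its gene, was at -0.15. None of these passed.

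**Figure D3:**
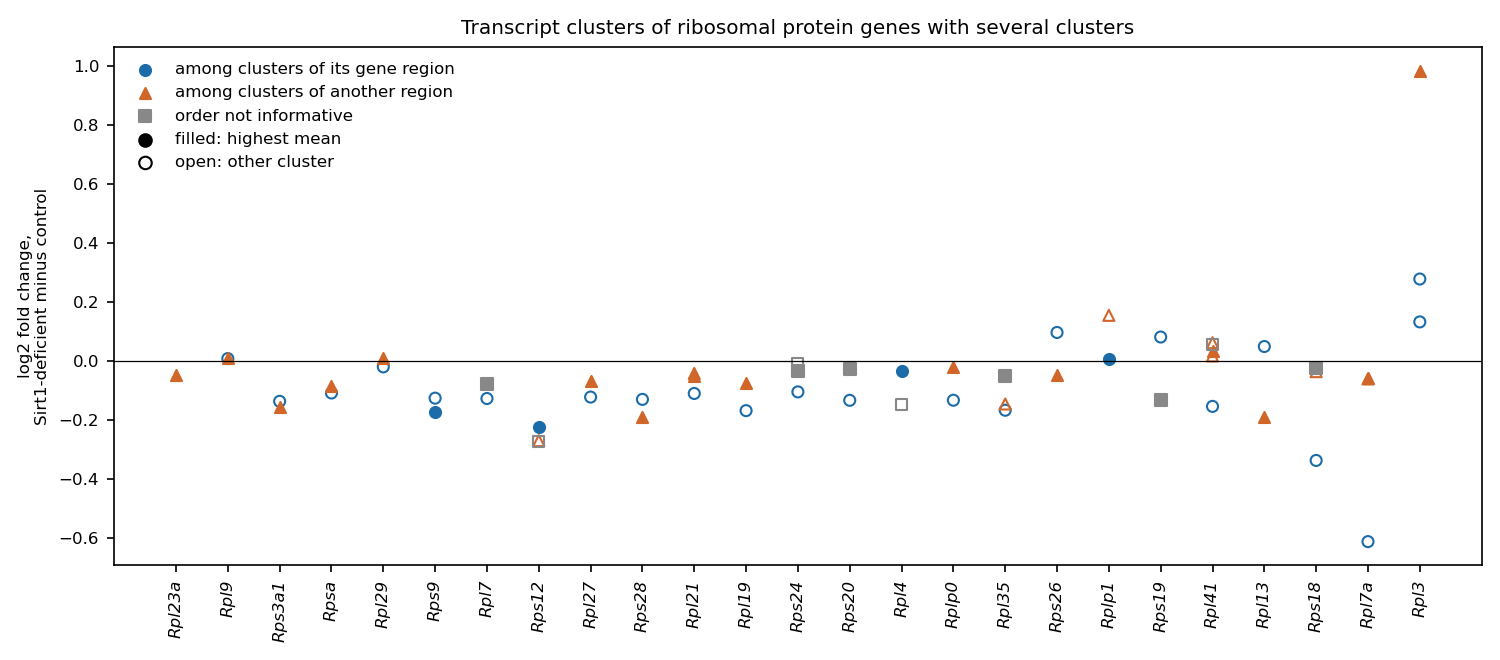
Log2 fold change (Sirt1-deficient minus control) of each distinct transcript cluster of the 25 ribosomal protein genes with several, ordered by the range within the gene; filled symbols are the brightest cluster of each gene and the shape and colour give the place of its identifier. For most genes the clusters lie close together, with a median range of 0.10, while the brightest Rpl3 cluster at 0.99 and the dim Rpl7a cluster at -0.61 stand apart from the other clusters of their genes.

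By place of the cluster kept, 41 members were read at their gene, 19 elsewhere and 7 could not be placed. Of the 41, none was higher and 1, Rpl27a, was lower, and their median log2 fold change was -0.05. Of the 19, Rpl3 was higher and Rps13 lower, with a median of -0.06. When only clusters at their gene were used, a choice made after the data were seen, 61 members had one, and Rpl7a and Rpl27a were lower and none was higher, where 1.64% of all genes passed. The log2 fold change of Rpl3 was then 0.13, which did not pass, and the median of the members was -0.10.

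The members as a group lay slightly below 0. Their median log2 fold change was -0.05, against -0.02 over all genes tested, and 50 of 67 were negative, against 12187 of 22180 genes. In 57 of the 67, or 85.1%, the fold change was within 0.2 of 0, as in 80.2% of all genes. The Sirt1-deficient and control values were fully apart in 14 members (20.9%), and in 11.7% of all genes. In the Sirt1-deficient pancreata, 12 of the 14 were lower (17.9% of the members, against 6.51% of all genes) and 2 were higher (2.99% of the members, against 5.23% of all genes). The share fully apart and lower differed by the place of the cluster, a difference that was not tested. It was 36.8% of the 19 members read elsewhere, 12.2% of the 41 read at their gene and 0% of the 7 that could not be placed. Members read elsewhere were also brighter than those read at their gene (array means of 10.4 to 10.8 against 6.7 to 6.9). Their median SD within groups was lower (0.077 against 0.125). The 12 were Rps13, Rpl27a, Rps15, Rps12, Rpl13, Rps3a1, Rps4x, Rpl15, Rpl3l, Rpsa, Rpl19 and Rpl27, and the 2 higher ones were Rpl3 and Rpl22l1; Rps4x and Rpl15 are named after their values were seen. Without control pancreas 2 the median of the members was -0.09.

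Genes of the small subunit lay lower than those of the large subunit by their medians, a difference that was not tested. Of 23 members of the 40S subunit, 21 had a negative fold change, with a median of -0.12, 1 was lower and none was higher. Rps15, a protein of the 40S head needed for export of the pre-40S particle, read 5.44, 5.64 and 5.42 in the Sirt1-deficient pancreata and 5.68, 5.75 and 5.93 in the control pancreata. The groups did not overlap, though the gap between the nearest values was small (log2 fold change -0.29, p = 0.0349 by limma; exact permutation p = 0.1). Rps10, which contacts the mRNA entry side, read 6.78, 6.66 and 6.66 in the Sirt1-deficient pancreata and 6.77, 6.96 and 7.01 in the control pancreata, which overlapped (-0.21, adjusted p = 0.798 by limma). Rps27, a zinc finger protein, overlapped as well (-0.24, adjusted p = 0.876 by limma). Of 8 measured genes of a list of 10 proteins at the decoding site and the mRNA channel, all were negative and none passed.

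Rps26, at the mRNA exit channel, varied most among the members after Rps13. It read 10.87, 11.00 and 10.16 in the Sirt1-deficient pancreata and 10.73, 10.84 and 10.60 in the control pancreata. Sirt1-deficient pancreas 3 was the lowest of all, and the other 2 were the highest, so the sign of the fold change, -0.05 with all arrays, turned to 0.21 without that pancreas. Rps28, also near the exit channel, was again lowest in that pancreas, at 11.16, 11.19 and 10.73 in the Sirt1-deficient pancreata and 11.32, 11.24 and 11.10 in the control pancreata (-0.19, adjusted p = 0.871 by limma). Sirt1-deficient pancreas 3 gave the lowest of the 6 values in 22 members (32.8%), against 16.4% of all genes. Control pancreas 1 gave the highest value in 21 members (31.3%, against 17.9% of all genes) and control pancreas 3 in 18 (26.9%, against 17.3% of all genes).

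Of the 35 members of the 60S subunit, 24 had a negative fold change, with a median of -0.03. The stalk proteins, which recruit the elongation factors, did not pass. The log2 fold change was -0.02 for Rplp0 and 0.01 for Rplp1, while Rplp2 read 4.05, 4.73 and 4.41 in the Sirt1-deficient pancreata and 4.397, 4.949 and 4.792 in the control pancreata (-0.32, standard error 0.19). The groups of Rplp2 overlapped, and its mean lay under the mark of dim signal. Rpl5 and Rpl11, which with the 5S rRNA bind the p53 inhibitor Mdm2, had fold changes of -0.12 and 0.11 (adjusted p of 0.9 and 0.951 by limma), and the mean of Rpl11 lay under the mark of dim signal. Rpl22, at the tunnel side of the subunit, was at -0.21 (standard error 0.13), and of 8 measured genes of a list of 9 tunnel exit proteins 7 were negative and none passed. Rpl6 and Rpl30, both dim, were at 0.11 and 0.10.

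Among the 9 paralogs and similarly named genes none passed, and the median log2 fold change was -0.02. Rpl22l1, the paralog of Rpl22, read 4.504, 4.424 and 4.317 in the Sirt1-deficient pancreata and 4.22, 4.14 and 4.24 in the control pancreata. The groups of Rpl22l1 did not overlap, but both were below the 4.66 mark of dim signal (0.21, p = 0.0695 by limma, exact permutation p = 0.1). The direction was opposite to that of Rpl22, whose own groups overlapped. Rpl39l and Rpl10l, paralogs known from testis, and Rpl3l, known from striated muscle, were also dim, at fold changes of 0.15, 0.04 and -0.08. Rps27l, a target of p53, was at 0.04 and Rpl7l1, a factor of large-subunit assembly, at -0.15. In all, 11 members had a mean under the mark.

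Many members of the ribosome were outside the 67. Of 79 proteins of the mouse cytosolic ribosome, 59 had a cluster of their own, 58 of them members and the other Fau, whose symbol has another form (log2 fold change -0.05). A further 12 were found only in clusters that name several genes, and 8 are not analysed here. Of 19 genes mutated in Diamond-Blackfan anemia, an inherited red cell aplasia, 14 were measured and none passed, 12 of them being negative.

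Other genes of the translation machinery were compared with the members by their counts and medians. Mitochondrial ribosomal proteins, which build the separate ribosome of that organelle, had a median log2 fold change of -0.05 over 71 genes, with none higher and 1 lower, Mrps27 (-0.48, adjusted p = 0.566 by limma). Of a list of 11 elongation factors and related genes, 1 was lower and none higher. The lower one was Eef1e1, an auxiliary protein of the tRNA synthetase complex rather than an elongation factor, and no other gene of the list passed. Eef1e1 read 7.35, 7.58 and 7.38 in the Sirt1-deficient pancreata and 8.05, 7.77 and 8.06 in the control pancreata (-0.52, adjusted p = 0.391 by limma). Other mRNAs known to carry a TOP tract had a median of -0.07, and all 16 measured of 20 were negative and none passed. This list shares Eef1a1, Eef1b2, Eef1d, Eef1g and Eef2 with the elongation factor list. It also shares Npm1 with the biogenesis factors, so the counts of these lists are not independent. Ribosome biogenesis factors had the lowest median of these lists, -0.11, and 68 of 84 were negative, with 2 lower and none higher. They were Rrp12 (-0.51, adjusted p = 0.409) and Nol6 (-0.46, adjusted p = 0.526 by limma), which act in processing of the pre-rRNA. None of 15 genes of RNA polymerase I and its factors, which transcribe the rRNA, and none of 12 hosts of small nucleolar RNAs passed.

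On the arrays, the deviation of each gene from its mean over the 6 arrays was summed up by its median. For the 40S genes it was -0.05, -0.02 and -0.08 in the Sirt1-deficient pancreata and 0.04, 0.05 and 0.09 in the control pancreata, with no overlap. This was not particular to the 40S genes. The groups were also apart for all 67 members, for the elongation factor list (-0.05, -0.02 and -0.02 against 0.05, 0.03 and 0.08) and for the hosts of small nucleolar RNAs. They overlapped for mitochondrial ribosomal proteins, other TOP mRNAs and RNA polymerase I genes. For the 60S genes it was -0.02, 0.01 and -0.02 in the Sirt1-deficient pancreata and 0.05, -0.004 and 0.04 in the control pancreata, where control pancreas 2 lay among the Sirt1-deficient ones. Over all genes it was -0.02, -0.01 and 0.01 in the Sirt1-deficient pancreata and 0.01, -0.005 and 0.01 in the control pancreata. For the biogenesis factors it was -0.20, -0.06 and 0.06 in the Sirt1-deficient pancreata and 0.15, -0.09 and 0.12 in the control pancreata, which overlapped.

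**Figure D4:**
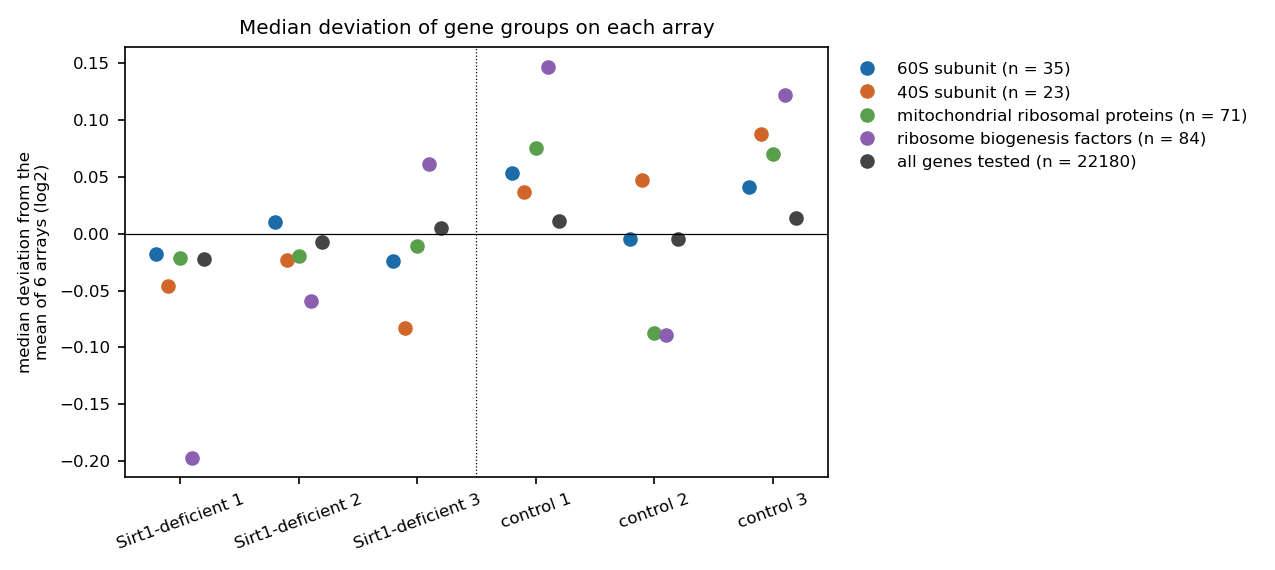
Median deviation of the genes of a group from their means over the 6 arrays (log2), for each array, Sirt1-deficient left of control; colours mark the gene groups. The 40S points of the 3 Sirt1-deficient pancreata lie below 0 and those of the 3 control pancreata above it, while the 60S and biogenesis points of control pancreas 2 lie with or below some Sirt1-deficient ones.

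Markers of the cell types of the organ were read on the same arrays. The mean level of 11 acinar markers measured of 15 was 12.035 to 12.053 in the Sirt1-deficient pancreata and 11.998 to 12.031 in the control pancreata. The tissue thus read as pancreas in all 6. These levels did not overlap, though no marker passed. Of the 11 markers, 7 had a positive and 4 a negative fold change, with a median log2 fold change of 0.02. The largest was that of Ptf1a (0.31, adjusted p = 0.640 by limma), a gene named after its value was seen. Its weight in the mean level was not tested. The 2 groups were fully apart and higher in 27.3% of the 11 (5.23% of all genes), and apart and lower in 9.09% (6.51% of all genes). Of 12 endocrine markers 2 were lower, the hormone gene Ppy (log2 fold change -0.83, adjusted p = 0.25) and the glucose transporter gene Slc2a2 (-0.57, adjusted p = 0.427 by limma), and their mean level was 7.14 to 7.34 in the Sirt1-deficient pancreata and 7.24 to 7.64 in the control pancreata. Of 9 endothelial markers, Emcn was higher (0.44, standard error 0.13). No marker of duct, B, T, macrophage, fibroblast, adipocyte, muscle or erythroid lists passed. Some of these lists could show little: 8 of 9 T cell and 6 of 9 B cell markers lay under the mark of dim signal. Of 7 erythroid markers only 1 was measured, and it was dim. The part of cell composition in the values of the ribosomal protein genes was not tested.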

How the data were processed

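RNA from whole pancreas of 3 Sirt1-deficient and 3 control mice was measured on 6 arrays, which correlated at 0.974 to 0.984. The authors deposited log2 expression values, obtained in the oligo package by Robust Multi-array Average (background correction, quantile normalization, summary per transcript cluster), which brings the arrays to 1 distribution and would remove a change shared by all genes. Of oligo, the version is not stated in what was read here. Of 41345 clusters, 23521 had 1 symbol in the platform annotation and gave 22180 genes, by the cluster with the highest mean. Clusters with several symbols, 57 with a member's among them, were not used. Genotypes were compared with limma 3.58.1 (lmFit, eBayes) in R 4.3.3, without covariates, with Benjamini-Hochberg adjustment over all genes; clusters were tested in a second fit over all 23521. The threshold of an unadjusted p under 0.01 is that of the study's methods. The array table names no build, so RefSeq (GRCm38.p6) gave only gene names, chromosomes and gene order, and the start sequences. Same-numbered arrays had correlated deviations of -0.11, 0.16 and 0.16, so numbers were not taken as pairs. The labels do not tie samples to litters or days.

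Named are members that passed, the 8 highest and 8 lowest fold changes, members with several clusters, and stalk, 5S and paralog genes; other lists give up to 3 genes that passed. Members and lists were chosen with earlier results of these data known. The limma fit was tested on simulated data with added shifts. The choice and placing of clusters and the search of the starts were not tested in this way. Alternatives were other scalings, moderation, array weights, a replicate block, a filter on dim genes, other choices of cluster, other thresholds and each array left out. The number of arrays limits the precision.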

Additional observations from a re-analysis of the deposited data

How the results depend on the processing

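With 3 arrays per group, 44 named members were refitted under up to 15 alternatives each, 650 in all: 595 kept their direction and their side of the threshold, 43 turned sign, 10 lost the call and 2 gained it. The cause of these changes was not tested. Of the 67 members, 0 passed, higher or lower, at an adjusted p under 0.05 by limma, while 3 passed at an unadjusted p under 0.01 and 4 at an unadjusted p under 0.05. With an intensity trend and robust moderation, 1 member was lower. With the cluster of the lowest mean, and with only clusters at their gene (chosen after seeing the data), 0 were higher. The median log2 fold change of the members was -0.0722 with array weights, -0.0696 with a gene's clusters averaged, -0.0832 with the cluster of the lowest mean and -0.0965 with only clusters at their gene. Leaving out 1 array gave 1 to 3 members called, 0 to 2 lower and medians of -0.0857 (without control 2) to -0.0455; 1 was called without Sirt1-deficient 1 or control 1. The replicate number as a block left 3 called, 2 lower and 1 higher, with a median of -0.05, and 373 genes in all, against 361.

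The sign of members that did not pass turned with array weights for Rps26 (0.0822), Rps24 (0.00958), Rps18 (0.0156) and Rpl9 (-0.0456), with clusters averaged for Rps26 (0.0255) and Rpl29 (-0.00371), and both with the lowest cluster and with clusters at their gene for Rpl13 (0.0502), Rps19 (0.0824), Rps26 (0.0978), Rpl29 (-0.0189) and Rpl41 (-0.153). With 1 array left out the range crossed 0 for Rps27l (-0.0238 to 0.0804), Rps16 (-0.0476 to 0.166), Rpl11 (-0.0379 to 0.204), Rpl6 (-0.109 to 0.272), Rpl21 (-0.0907 to 0.00574), Rps26 (-0.206 to 0.211), Rps24 (-0.0812 to 0.0169), Rps20 (-0.0643 to 0.0265), Rps18 (-0.206 to 0.124), Rplp0 (-0.0598 to 0.037), Rplp1 (-0.0128 to 0.0328), Rpl9 (-0.111 to 0.12), Rpl29 (-0.0556 to 0.131) and Rpl10l (-0.0287 to 0.118).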
